A study of Mus musculus with 6 samples.

Results

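The mesothelium is the single layer of flat cells that covers the outer surface of the lung, and 6 of its marker genes were followed here: Msln, Upk3b, Wt1, Lrrn4, Upk1b and Gpm6a. The members were all probe sets whose gene symbol, or an older alias of it, is one of these 6 names. A probe set is the group of short oligonucleotides that gives 1 value for a transcript on an Affymetrix array. This gave 11 probe sets of 45101 in all: 4 for Upk1b, 2 each for Upk3b and Gpm6a, and 1 each for Msln, Wt1 and Lrrn4. All 11 lay above the level filter and were tested among 27022 probe sets.

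Total RNA of whole mouse lung was measured on 6 Mouse Genome 430 2.0 arrays, 3 from wild-type and 3 from Carm1 knockout animals. Carm1 encodes an enzyme that methylates arginines of histones and other proteins and works as a transcriptional coactivator. The series' design text places both genotypes at embryonic day 18.5, as do the labels of the knockouts, but the wild-type labels read neonatal, so age and genotype cannot be told apart from the labels alone. No strain, treatment or description of the knockout allele was given in the labels, and nothing said whether samples were separate fetuses, so p-values measure only the spread between these samples. In a bulk sample, fewer cells of a type and less RNA per cell cannot be told apart.

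In the fetal chest the mesothelium forms the visceral pleura, and it also covers the heart, the liver and other organs. In the developing lung it sends signals to the mesenchyme beneath it. Several of the 6 genes are widely used to recognise mesothelial cells in tissue. None of them is absolute: Upk1b belongs to the urothelium as well, and Gpm6a is abundant in neurons.

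No member (0 of 11 probe sets) passed the adjusted p threshold of 0.05 by limma in knockout against wild-type lung, where 0.0296% of all tested probe sets passed. Before adjustment, Msln and Upk3b, 2 of the 6 genes, were lower at a p under 0.05, as were 6.31% of all tested probe sets. Msln had the largest difference of the 6 genes, at 60.6% of the wild-type level. Its knockout arrays all lay below all wild-type arrays at its main probe set, as for 9.36% of all tested probe sets. It was the 1 gene of the 6 with this order. Upk3b had the next largest difference, at 67.9% of the wild-type level, with overlapping groups. For Lrrn4, Wt1, Gpm6a and Upk1b the difference was smaller than the spread between arrays of 1 genotype. Gpm6a, Lrrn4, Wt1 and Upk3b instead varied together from array to array, being lower on wild type replicate 1 and on knockout replicates 1 and 3 than on wild type replicates 2 and 3 and knockout replicate 2, except that for Upk3b knockout replicate 2 was only slightly above wild type replicate 1.

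Facts of the whole set of arrays were as follows. Array medians ran from 105.8 to 121.4. The signal of Carm1 was 814, 678 and 865 in wild type and 395, 374 and 511 in knockout, with no overlap and an adjusted p of 0.105 by limma. Whether its probe set lies in the deleted region is not known here. Xist and Y-linked transcripts showed that wild type replicate 3 and knockout replicate 2 were male and that the remaining 4 arrays were female. Bacterial control RNA here means the signal of 27 Lys, Phe, Thr, Trp and Dap control probe sets. Other bacterial controls were not examined. This RNA was present on wild type replicates 1 and 3 (median signals of 579 and 375) and near background elsewhere, between 3.77 and 14.1. The 3' to 5' signal ratio of Gapdh, a measure of RNA integrity, was between 0.800 and 0.908 on the 6 arrays, and that of Actb between 1.56 and 1.75. Transcripts of neighbouring organs differed widely between arrays and are given after the members' values.

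**Figure D1:**
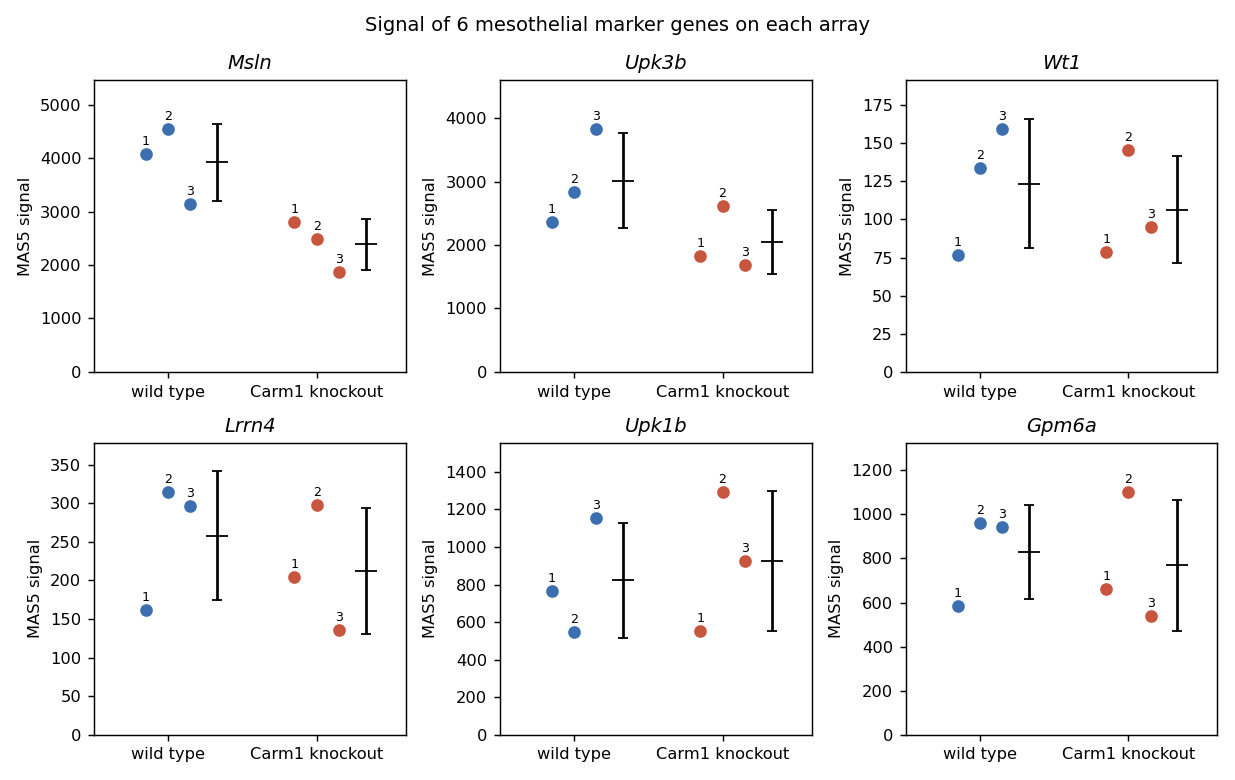
Linear MAS5 signal of each of the 6 genes at its main probe set, in arbitrary units, for the 3 wild-type (blue) and 3 Carm1 knockout (red) arrays, numbered by replicate, with the mean and SD in black. Only for Msln, at the upper left, are the groups separate, with the knockout arrays lowest, as for 9.36% of all tested probe sets.

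The cell surface proteins came first. Msln encodes mesothelin, a surface glycoprotein held in the membrane by a lipid anchor, and the classical antigen of mesothelial cells. Its signal was 4083, 4559 and 3139 on wild type replicates 1 to 3 and 2810, 2488 and 1864 on knockout replicates 1 to 3. Every knockout array lay below every wild-type array, and the gap between the groups was narrow, from 3139 down to 2810. The means were 3927 ± 723 (SD, n = 3) and 2387 ± 481, and the log2 difference was −0.72 with an SE of 0.18. Its 95% confidence interval ran from 45.7% to 80.4% of the wild-type level. The p by limma was 0.00313 before and 0.160 after Benjamini-Hochberg adjustment, and an exact permutation test (two-sided) gave a p of 0.1, which is the minimum for groups of 3. The knockout arrays were the 3 lowest of the 6 for 9.36% of all tested probe sets, so this ordering of arrays is common in these data. The Msln difference was −0.91 among the 4 female arrays and −0.34 between the 2 male arrays.

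Beside Msln, the alveolar type I markers ordered the genotypes in the same way. The summed signal of 6 such genes (Ager, Hopx, Aqp5, Rtkn2, Cldn18 and Emp2) lay between 74119 and 105894 in wild type and between 48954 and 63636 in knockout. Of these genes, 5 of 6 likewise had the 3 knockout arrays lowest, as did 9.36% of all tested probe sets. None passed over all probe sets; the lowest adjusted p by limma was 0.0934. Knockout replicate 3 was lowest for both Msln and this list. Tested genes of alveolar type II cells (Sftpa1, Abca3, Sftpc and Sftpb) and of the airway (Scgb1a1, Scgb3a2, Foxj1 and Krt5) all overlapped between the genotypes. The median log2 difference was −0.073 for the type II list and 0.11 for the airway list, beside −0.61 for the type I list. The part of the type I cells in the signal of Msln was not tested.

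Upk3b encodes a uroplakin, a membrane protein of the family that stiffens the surface of the bladder lining, and is among the most specific transcripts of mesothelium. At the main probe set its signal was 2367, 2843 and 3836 in wild type and 1827, 2620 and 1690 in knockout. Knockout replicate 2 lay inside the wild-type range, and the other knockout arrays lay below it. The means were 3015 ± 750 and 2046 ± 502, a log2 difference of −0.56 with an SE of 0.21 and an adjusted p by limma of 0.297. The other probe set of Upk3b read 1270, 1491 and 1998 in wild type and 935, 1452 and 738 in knockout. Its log2 difference was −0.64, and its adjusted p by limma was 0.317. Both probe sets ranked the arrays alike, with a Pearson r of 0.98 over 6 arrays that share the same RNA. Within the female arrays the difference of Upk3b at its main probe set was −0.56 and within the male arrays −0.55.

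Upk1b encodes a uroplakin with 4 membrane passes, of the tetraspanin family, and was the member with the highest knockout mean relative to wild type. At its main probe set the signal was 766, 548 and 1155 in wild type and 550, 1295 and 925 in knockout. The groups overlapped over nearly their whole range, and the highest array of each genotype was the male one. The log2 difference was 0.15 with a 95% confidence interval from −0.61 to 0.91. A further pair of probe sets differed by 0.12 and 0.043. The names of 2 of the 4 probe sets, the one at 0.12 and the fourth, mark them as able to cross-hybridise. The fourth was lower in knockout: it read 437, 441 and 512 in wild type and 222, 419 and 384 in knockout. The groups did not overlap, with the knockout arrays lowest, as for 9.36% of all tested probe sets. The log2 difference was −0.49, with a 95% confidence interval from −1.03 to 0.054 and an adjusted p by limma of 0.416. This probe set had a Pearson r between 0.51 and 0.60 with the other 3 over the 6 arrays, whereas those 3 had r between 0.87 and 0.99 with each other. The sign of the Upk1b difference therefore depends on the probe set, and the 95% confidence interval of each of the 4 includes 0. Upk1b is not alone in this mark: the names of the main probe sets of Upk3b, Wt1 and Gpm6a, and of the Carm1 probe set, also point to possible cross-hybridisation.

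Gpm6a encodes a membrane glycoprotein related to the proteolipid protein of myelin, and Lrrn4 a membrane protein with leucine-rich repeats. At its main probe set Gpm6a read 582, 961 and 942 in wild type and 661, 1103 and 540 in knockout. Both groups spanned nearly the same range, with a log2 difference of −0.14 and a 95% confidence interval from −0.78 to 0.50. The other probe set of Gpm6a read 349, 643 and 605 in wild type and 414, 538 and 310 in knockout, a log2 difference of −0.32. Lrrn4 read 162, 315 and 296 in wild type and 204, 298 and 136 in knockout. Wild type replicate 1 was thus as low as the lower knockout arrays, and knockout replicate 2 as high as the higher wild-type arrays. The log2 difference of Lrrn4 was −0.29, with a 95% confidence interval from −1.08 to 0.49.

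Wt1, the 1 transcription factor among the members, encodes a zinc finger protein needed for the mesothelium and for the organs that arise beneath it. Its signal was 76.9, 134 and 160 in wild type and 78.8, 146 and 94.9 in knockout. The lowest wild-type array was below every knockout array and the highest was above every one. The log2 difference was −0.20, with a 95% confidence interval from −1.03 to 0.63, so neither a decrease nor an increase of moderate size could be resolved. Wt1os, the transcript on the opposite strand of the Wt1 locus, has its own probe set, which read at most 22.4 on any array and was not tested.

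**Figure D2:**
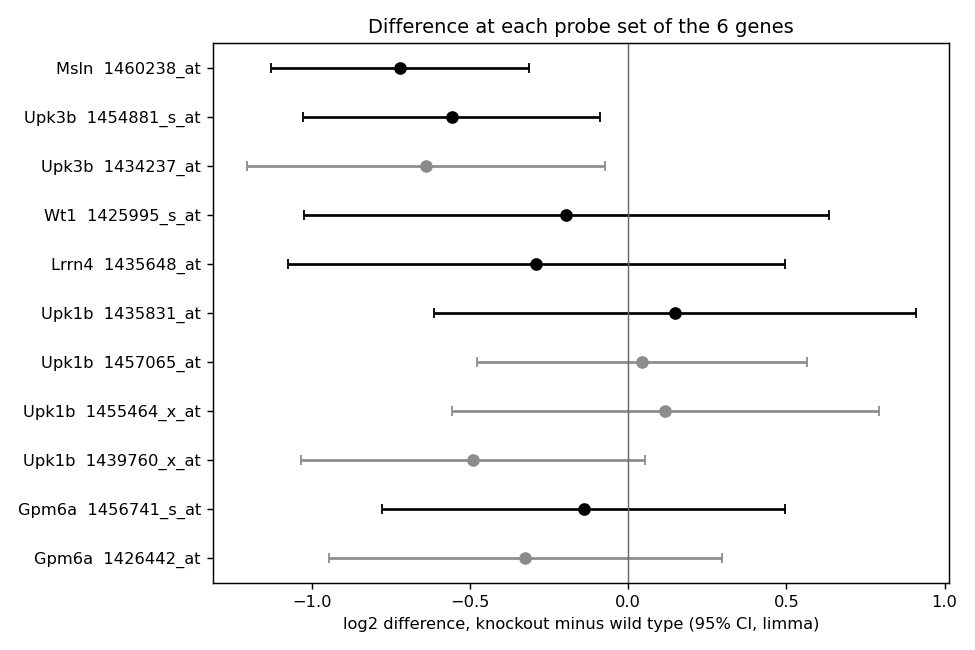
Log2 difference, knockout minus wild type, at each of the 11 probe sets with its 95% confidence interval from limma, main probe sets in black and the others in grey. The intervals of Msln and of both Upk3b probe sets lie below 0 before any adjustment for multiple testing, and all others include 0.

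As a list, 5 of the 6 genes were lower in knockout at their main probe sets and 1, Upk1b, was higher. The median log2 difference was −0.24, where the median of all tested probe sets was 0.019 and 47.3% of them were lower. At an unadjusted p under 0.05, 2 of the 6 genes were lower, against 6.31% of all tested probe sets. These counts describe the list only. The median was −0.070 without knockout replicate 3, −0.095 without wild type replicate 3, −0.11 without wild type replicate 2, −0.55 when wild type replicate 1 was left out and −0.51 when knockout replicate 2 was, so single arrays moved it widely. Among the 4 arrays without bacterial control RNA, where only wild type replicate 2 stands against the knockouts, it was −0.45. It was −0.032 when the array of highest liver signal in each genotype was left out, a choice made after seeing the data. Without probe sets that may cross-hybridise, which leaves no probe set for Wt1, the median was −0.32.

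The array-to-array pattern was larger than the genotype difference for most of the members. Each gene's log2 signal was centred on its mean over the 6 arrays. On wild type replicate 1 Lrrn4, Wt1 and Gpm6a were at −0.47, −0.52 and −0.40, whereas Msln was at 0.43. On knockout replicate 2 the same 3 genes were at 0.42, 0.40 and 0.52, whereas Msln was at −0.28. The 2 arrays were thus on opposite sides for Msln and for the other genes.

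Among Gpm6a, Lrrn4, Upk3b and Wt1, Pearson r over the 6 arrays lay between 0.74 and 0.97 in all 6 pairs, and between 0.81 and 0.97 once each genotype's mean was removed. The closest pair was Lrrn4 with Gpm6a. The 9 pairs that included Msln or Upk1b had r between −0.49 and 0.54, and between −0.66 and 0.67 with the genotype means removed, the highest being Upk3b with Upk1b. These values are descriptions over 6 arrays that each come from 1 RNA preparation, and the grouping into these genes was made after their values were seen.

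**Figure D3:**
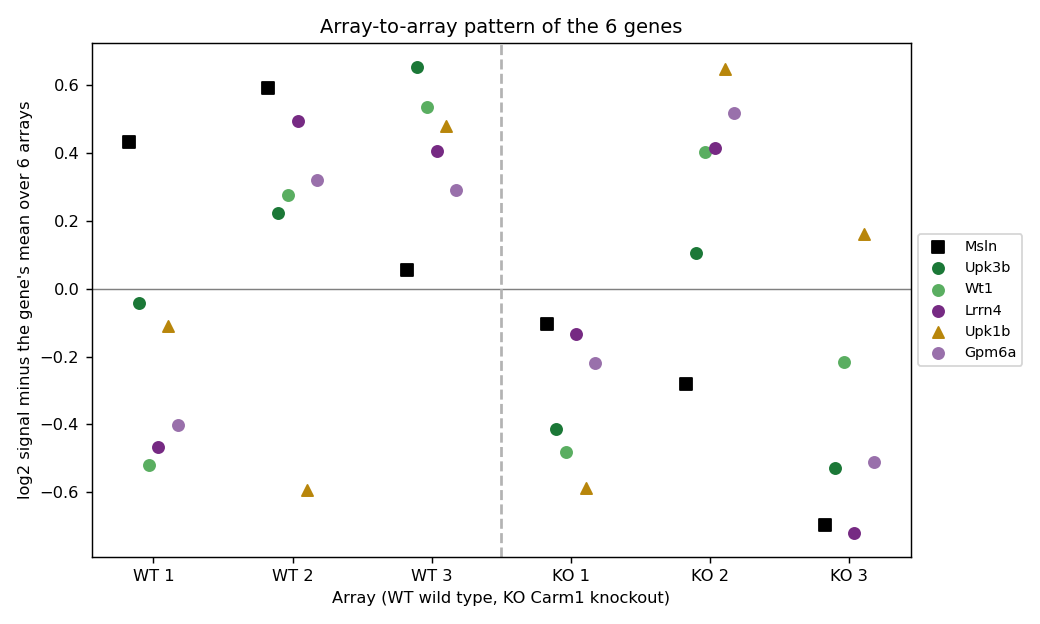
Log2 signal of each gene minus its mean over the 6 arrays, in log2 units, for wild type (WT) and knockout (KO) replicates 1 to 3. Gpm6a, Lrrn4, Wt1 and Upk3b (circles) are above 0 on WT 2, WT 3 and KO 2 and below 0 on WT 1, KO 1 and KO 3, Msln (squares) lies on either side of 0 by genotype, and Upk1b (triangles) follows neither pattern.

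Promoter sequences were looked up because these genes varied together. Of the 6 genes, 3 had an entry in the RefSeq promoter table of GRCm38.p6, which gives 250 bases before and 50 after a start site, and those 3 were Lrrn4, Upk3b and Gpm6a. A search of both strands used 6 motifs, chosen with the values known: GGAATG, the core of sites bound by the TEAD factors, GCGTGGGAG and its part GTGGGAG for WT1, GCGGGGGCG, shared by EGR factors and WT1, and the GC-rich GGGGCGGGG and CCGCCC. The motif GGAATG, or CATTCC on the other strand, is in capitals below, printed 5′ to 3′ along the gene's strand.
Lrrn4 (chr2:132880813-132881112, minus strand): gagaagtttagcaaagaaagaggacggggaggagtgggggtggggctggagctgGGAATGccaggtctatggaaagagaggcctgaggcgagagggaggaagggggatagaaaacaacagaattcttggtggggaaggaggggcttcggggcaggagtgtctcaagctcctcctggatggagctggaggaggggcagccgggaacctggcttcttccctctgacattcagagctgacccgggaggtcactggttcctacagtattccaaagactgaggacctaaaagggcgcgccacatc
Upk3b (chr5:136038246-136038545, plus strand): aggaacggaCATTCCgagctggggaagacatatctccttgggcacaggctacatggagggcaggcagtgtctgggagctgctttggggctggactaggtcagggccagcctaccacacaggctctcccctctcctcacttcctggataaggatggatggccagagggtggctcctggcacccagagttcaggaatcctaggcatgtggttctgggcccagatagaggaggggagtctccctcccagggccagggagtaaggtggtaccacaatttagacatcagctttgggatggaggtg
Gpm6a (chr8:54779184-54779483, plus strand): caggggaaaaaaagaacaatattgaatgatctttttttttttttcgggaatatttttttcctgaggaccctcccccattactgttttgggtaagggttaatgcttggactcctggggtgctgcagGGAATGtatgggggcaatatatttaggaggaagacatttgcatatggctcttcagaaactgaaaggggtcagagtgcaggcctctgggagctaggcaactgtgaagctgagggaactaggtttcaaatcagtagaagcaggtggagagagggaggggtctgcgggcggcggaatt
Each of these windows held GGAATG once, and a second start site of Gpm6a held none. The motif occurred in 14.7% of all 32851 promoter windows in the table. The WT1 and EGR motifs and GGGGCGGGG occurred in none of the 4 windows, against 0.472% of all windows for GCGTGGGAG, 9.73% for GTGGGAG, 2.91% for GCGGGGGCG and 11.4% for GGGGCGGGG. CCGCCC occurred in 1 of 4 windows, against 35.7% of all. A match is a run of letters and not a site shown to be used.

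The summed signal of the 6 members, most of it from Msln and Upk3b, was 8037, 9359 and 9527 in wild type and 6131, 7950 and 5249 in knockout, without overlap but with knockout replicate 2 close to wild type replicate 1. Transcripts of organs next to the lung differed between arrays more than the members did. The summed signal of the 4 liver genes Alb, Afp, Apoa2 and Ttr was 4096, 96967 and 227 on wild type replicates 1 to 3 and 135399, 3568 and 16098 on knockout replicates 1 to 3. Heart muscle genes (Myh6, Myl7, Nppa, Tnnt2 and Actc1) summed to 10129, 13047 and 3719 in wild type and to 10683, 36941 and 15202 in knockout. Skeletal muscle genes (Myh3, Acta1, Ckm, Myog and Tnnt3) summed to 884, 2732 and 303 in wild type and 825, 1638 and 22772 in knockout. The heart and the liver carry a mesothelial cover of their own. Knockout replicate 2, highest for heart muscle genes, was the highest array for Gpm6a and Upk1b at their main probe sets, while wild type replicate 3, lowest for all 3 organ lists, was the highest array for Upk3b and Wt1. Tbx18, a factor of the epicardium that was below the level filter, read 225 on knockout replicate 2 and at most 64.4 on the other arrays. What part RNA of these organs had in the members' signals was not tested.

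**Figure D4:**
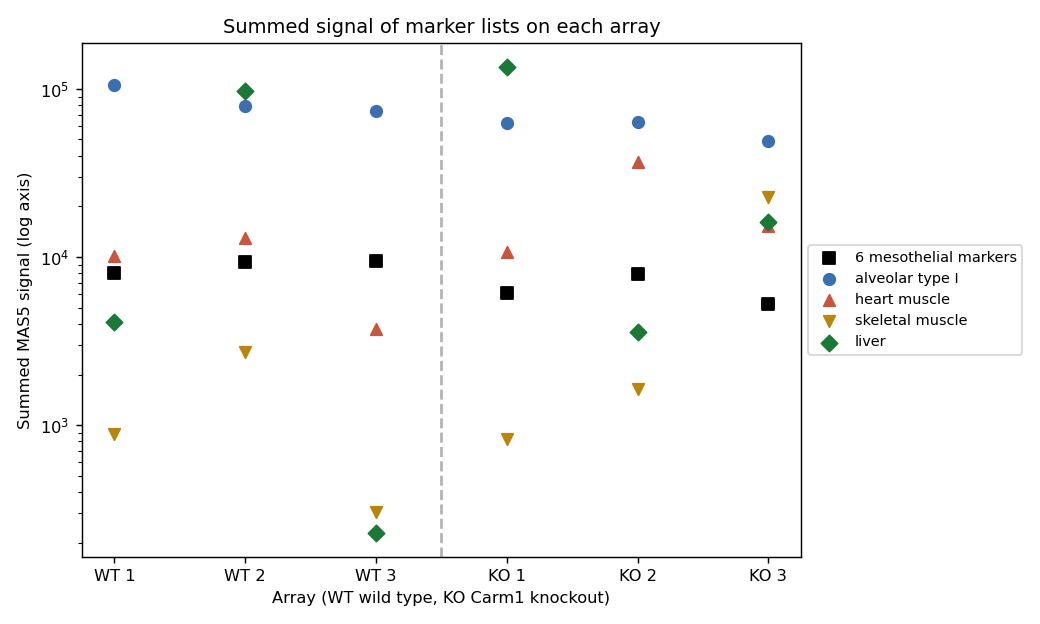
Summed MAS5 signal, on a log axis, of the 6 mesothelial markers and of alveolar type I, heart muscle, skeletal muscle and liver genes on each array. The mesothelial sum is 8037, 9359 and 9527 in wild type and 6131, 7950 and 5249 in knockout, while the liver sum runs from 227 to 135399.

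When wild type replicate 2 and knockout replicate 1 were left out, each the array of highest liver signal in each genotype, the difference was −0.73 for Msln, −0.52 for Upk3b and −0.12 for Lrrn4, and it turned positive for Wt1, at 0.086, and Gpm6a, at 0.059. Thymus genes, at a summed signal of at most 198, were all below the level filter. Neuronal and glial genes, of interest because neurons also make Gpm6a, summed to between 725 and 1089 in wild type and between 450 and 627 in knockout; Tubb3 and Elavl4 were below the level filter. Most of this sum came from Stmn2, of neurons and neuroendocrine cells. Stmn2 read 918, 546 and 619 in wild type and 384, 425 and 354 in knockout, with an adjusted p by limma of 0.160. Its knockout arrays were lowest, as for 9.36% of all tested probe sets. Sox10, the other tested gene, had a log2 difference of −1.13 with overlapping groups. The untested Tubb3 and Elavl4 differed in the other direction, by 1.23 and 0.31. The part of neurons in the signal of Gpm6a was not tested.

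In wild type the male array was above both female arrays for Upk3b, Wt1 and Upk1b. In knockout it was so for Upk3b, Wt1, Lrrn4, Upk1b and Gpm6a. The share of all tested probe sets with this order was not counted, and several of these genes varied together. With 1 male array in each genotype, sex cannot be told apart from differences between single arrays. The male arrays were also the lowest for liver genes (wild type replicate 3) and the highest for heart muscle genes (knockout replicate 2). For Wt1 the male array exceeded the mean of the female arrays by 0.66 in wild type and 0.75 in knockout on the log2 scale, and for Upk1b by 0.83 and 0.86. In a fit with genotype and sex as terms, added after seeing the data, 0 of the 6 genes passed the adjusted threshold for sex by limma, where 0.0111% of all tested probe sets passed. At an unadjusted p under 0.05, Upk3b, Upk1b and Gpm6a, 3 of the 6 genes, were higher in males, as were 2.02% of all tested probe sets. The male minus female difference was 0.57 for Upk3b, 0.85 for Upk1b and 0.61 for Gpm6a on the log2 scale, over 2 male and 4 female arrays, each with an adjusted p of 0.999 by limma. With sex as a term in the model, the adjusted p by limma was 0.165 for Upk3b and 0.226 for Msln.

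A second list held 19 further genes of mesothelium, some shared with lung epithelium, of which 18 were tested. In knockout 9 were higher and 9 lower, 0 passed the adjusted threshold in either direction, and the median log2 difference was −0.0077. At an unadjusted p under 0.05 by limma 1 of them, Krt7, was lower, against 6.31% of all tested probe sets. The 4 of smallest p were Krt7, Pdpn, Nkain4 and Upk3bl. Krt7, a keratin of simple epithelia, read 5175, 5006 and 3996 in wild type and 3536, 4095 and 3341 in knockout, a log2 difference of −0.37 with an adjusted p by limma of 0.273. Pdpn, podoplanin, is made by both mesothelium and alveolar type I cells. It read 4657, 2857 and 2424 in wild type and 2476, 2678 and 1480 in knockout, a log2 difference of −0.57.

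Nkain4, a membrane protein that interacts with the sodium pump, read 777, 1111 and 1056 in wild type and 1160, 1155 and 1169 in knockout. The 3 knockout arrays were the highest, as for 10.7% of all tested probe sets, and the log2 difference was 0.26. Upk3bl, a relative of Upk3b, read 144, 100 and 128 in wild type and 107, 199 and 877 in knockout, so its high mean in knockout came from replicate 3. That array was also highest for Muc16, the mucin that binds mesothelin, at 498 against at most 240 on the other arrays, and for the squamous keratin Krt4, at 735 against at most 180. For Krt4 the 3 knockout arrays were the highest, again as for 10.7% of all tested probe sets. Of the other squamous keratins examined, Krt13 and Krt6a were highest on knockout replicate 3 and Krt14 was lowest there. Krt13 and Krt14 were below the level filter.

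Other genes of the second list, named after their values were seen, overlapped between the genotypes. Aldh1a2, the retinoic acid synthesising enzyme of fetal mesothelium, read 639, 1121 and 1170 in wild type and 1087, 979 and 802 in knockout. Its log2 difference was 0.0089, with a 95% confidence interval from −0.51 to 0.53. Bnc1, basonuclin, read 126, 173 and 239 in wild type and 210, 226 and 110 in knockout, a log2 difference of 0.0033. Like Lrrn4, Wt1 and Gpm6a, both Aldh1a2 and Bnc1 were lowest of the wild-type arrays on replicate 1. So were Muc16, Cldn15, Ildr2, Podxl, Efemp1 and, of the genes above, Nkain4. Other tested genes of the second list went the other way. Calb2, Rspo1, Dmkn, Upk3bl, Pdpn, Krt7, Krt8, Krt18 and Krt19 were highest of the wild-type arrays there, and Fgf9 was in between. The list thus had no common order of the wild-type arrays. Calb2, calretinin, had a log2 difference of 0.30 and overlapping groups. Ildr2 had one of 0.32, Podxl, a sialomucin of the cell surface, one of −0.28, and Muc16 one of 0.75, also with overlap. Rspo1, a Wnt-enhancing ligand, had a log2 difference of −0.019.

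**Figure D5:**
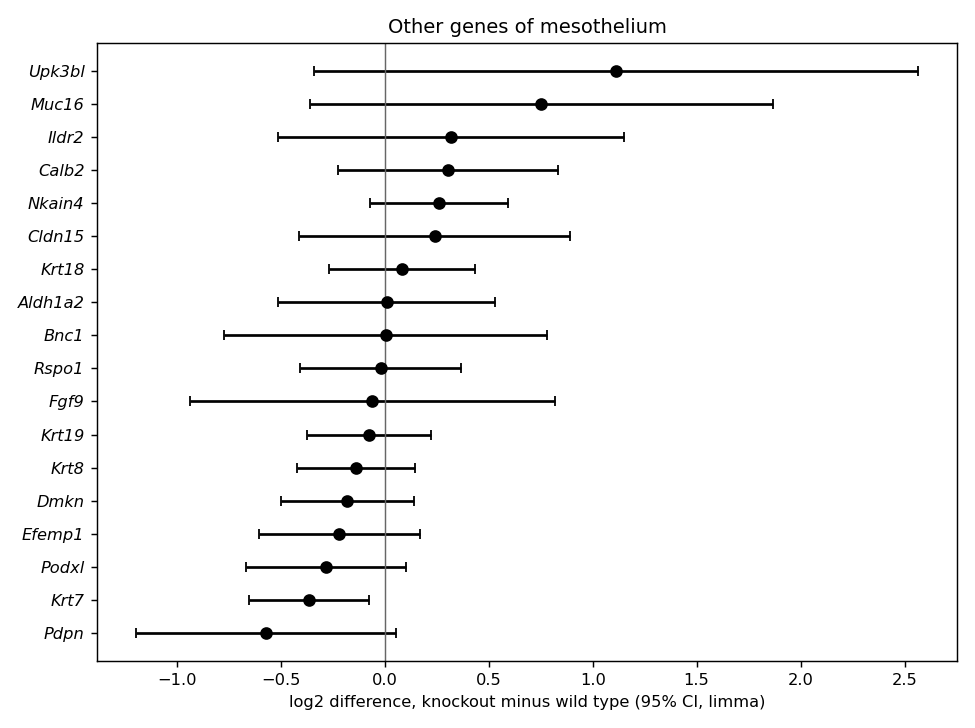
Log2 difference, knockout minus wild type, of the 18 tested genes of the second list with 95% confidence intervals from limma. The points spread on both sides of 0 around a median of −0.0077, and only the interval of Krt7 excludes 0 before adjustment.

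The families of the members gave no common direction. Of 6 uroplakin genes 3 were higher and 3 lower in knockout, and none passed; apart from the members, Upk3a had the smallest p, with a log2 difference of 0.40 and an adjusted p by limma of 0.434. Gpm6b, the closest relative of Gpm6a on the array, read 1918, 2360 and 2353 in wild type and 1658, 1856 and 1718 in knockout. The knockout arrays were the lowest, as for 9.36% of all tested probe sets. The log2 difference was −0.34 with an adjusted p by limma of 0.265. Lrrn1 and Lrrn3, relatives of Lrrn4, had log2 differences of 0.39 and 0.48 with overlapping groups, and Lrrn2 was below the level filter.

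Genes of the mesenchyme beneath the mesothelium, 6 in all, were 3 higher and 3 lower, with 0 past the adjusted threshold by limma and 2 at an unadjusted p under 0.05, Pdgfra lower, as were 6.31% of all tested probe sets, and Col1a1 higher, as were 7.32% of them. Col1a1, the main fibrillar collagen chain, read 3110, 4449 and 3276 in wild type and 4898, 4630 and 6177 in knockout, a log2 difference of 0.54 with an adjusted p by limma of 0.215. Pdgfra, a growth factor receptor of fibroblasts, read 2848, 3129 and 2824 in wild type and 2475, 2230 and 2656 in knockout. Both were without overlap and in opposite directions, beside the 9.36% and 10.7% of all tested probe sets without overlap in the lower and the higher direction.

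The genes most like the mean of the 6 members over the 6 arrays, by Pearson r among 5729 probe sets whose log2 values spanned at least 1 unit, were Smchd1 (0.98), Tmem121b (0.97), Klf9 (0.97), Gm16316 (0.96) and Cyp2c54 (0.96). None of these is a mesothelial marker of the fixed lists. In all, 31 of the 5729 probe sets had an r above 0.9. How many would reach this over 6 arrays without any relation to the members was not tested. The Klf9 value is from a probe set that is not its brightest, at 195, 239 and 370 in wild type and 155, 288 and 142 in knockout. The Smchd1 value is likewise not from its brightest probe set and read at most 111. Tmem121b and Cyp2c54 were also dim, at most 118 and 134 on any array.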

How the data were processed

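Labelled cRNA from column-purified total RNA was hybridised to the arrays, as the labels' protocols state. The values deposited by the authors were linear intensity values from MAS5 (named in the submitters' processing notes, version not stated there). On each array the mean signal was 500 once 2% of the probe sets had been trimmed at either end, so every array had one common scale.

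Platform gene symbols were brought up to date by gene ID with RefSeq. A single symbol was found for 34945 probe sets, several for 932 and none for 9160; only the first kind was named. Probe sets other than the 64 controls were tested if their mean log2 value exceeded the 40th percentile, which corresponds to a signal of 59.7. The log2 values were computed here from the deposited intensities, with no pseudocount. The test was limma 3.58.1 in R 4.3.3 with an intensity trend, knockout minus wild type, with Benjamini-Hochberg adjustment over all 27022 tested probe sets and a threshold of 0.05, and it was tested on simulated data. The main probe set of a gene is the one of highest mean log2 value. For single genes an exact permutation test over arrays was added. Errors are SDs over 3 arrays.

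All 6 members are named at every probe set; of each further list, those past the threshold and otherwise up to 4 of smallest p; and the 5 genes of highest r with the members' mean. Other genes were named after their values were seen. The members and lists were chosen with earlier results of these data known. The number of arrays limits the precision.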

Additional observations from a re-analysis of the deposited data

How the results depend on the processing

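No member passed the adjusted threshold under any alternative run: quantile normalization, log2(signal + 50), no level filter, eBayes without trend or robust, a replicate block, sex or bacterial control RNA as a term, only arrays without that RNA, the mean of a gene's probe sets, each array left out, or the array of highest liver signal left out in each genotype, which was chosen after seeing the data. Msln and Upk3b stayed lower in all of them, Msln between −0.95 and −0.55. The count of all probe sets called was 8, and moved to 0 without trend, 40 with robust eBayes, 0 with the replicate block, 4 with sex as a term, 2 with bacterial control RNA as a term, 3 on only the arrays without it, 58 without the liver-rich arrays, and between 0 and 13 with 1 array left out. With 1 array left out, the second list's median ran from −0.13 to 0.076, Upk3b from −0.75 to −0.37, Lrrn4 from −0.60 to −0.0034, Gpm6a from −0.44 to 0.080, Wt1 from −0.50 to 0.023 and Upk1b from −0.14 to 0.48. Without the liver-rich arrays the signs of Gpm6a (0.059) and Wt1 (0.086) turned, and with the mean of its probe sets that of Upk1b (−0.045). The cause was not tested. Same-numbered arrays did not deviate together (r of −0.14, −0.38 and −0.0056). The labels give no pairing, and so few arrays cannot exclude one.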
